A study of Saccharomyces cerevisiae with 9 samples.

Results

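The 56 genes described here encode the proteins of the small subunit of the cytosolic ribosome of *Saccharomyces cerevisiae*. They are the rows of the count table whose standard name is RPS followed by a number and, for duplicated genes, the letter A or B, and they make up 56 of 6357 rows. All 56 passed the filter on low counts. Among them, 24 pairs of paralogs (A and B copies) and 8 single-copy genes encode 32 proteins. RNA came from CAT-1, a strain of Brazilian fuel-ethanol plants, kept through 5 rounds of fed-batch fermentation on sugar cane molasses with an acid treatment between rounds, and sampled at hour 4 of the last. The 9 libraries form 3 groups of 3: cultures with the antifoam agent labelled Ind_Z, cultures with the antifoam labelled Ind_B, and control cultures. The labels give neither the doses nor the composition of the agents and do not say whether the libraries of a group came from separate cultures, so p-values measure the spread between these libraries, which may be technical.

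The small subunit binds messenger RNA, carries the decoding centre and scans for the start codon. Its proteins are needed in equal numbers, and in yeast their genes are transcribed together under the activators Rap1, Fhl1, Ifh1 and Sfp1, which respond to nutrient and stress signals through the TORC1 and protein kinase A pathways. Most of the genes are duplicated, many carry an intron, and the copies encode proteins that are nearly or fully identical.

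How far the copies of a pair can be told apart by sequence differs between pairs, and the pairs on which the results turn are shown here with their first 90 coding bases. The sequences are those of the RefSeq reference genome R64, looked up by gene identifier, counted from the A of the start codon and read 5′ to 3′ on the coding strand. Capitals mark the bases at which the copies differ. The deposited table names no genome build, and CAT-1 may differ from the reference strain. RPS9, RPS22 and RPS26 are shown because the ratio of their copies changed in Ind_Z, and RPS6 because its copies have the highest identity.
RPS9A: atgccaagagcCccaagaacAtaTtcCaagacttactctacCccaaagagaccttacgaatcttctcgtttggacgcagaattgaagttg
RPS9B: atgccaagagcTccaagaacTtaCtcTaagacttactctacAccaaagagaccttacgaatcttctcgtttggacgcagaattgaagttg
RPS22A: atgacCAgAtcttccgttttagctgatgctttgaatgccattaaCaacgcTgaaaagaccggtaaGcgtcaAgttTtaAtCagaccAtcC
RPS22B: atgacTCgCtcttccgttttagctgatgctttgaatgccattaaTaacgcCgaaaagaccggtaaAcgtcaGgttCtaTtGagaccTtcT
RPS26A: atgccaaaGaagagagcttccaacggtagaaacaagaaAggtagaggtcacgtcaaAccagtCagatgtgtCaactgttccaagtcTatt
RPS26B: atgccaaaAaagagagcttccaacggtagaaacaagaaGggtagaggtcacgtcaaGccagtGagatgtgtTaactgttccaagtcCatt
RPS6A: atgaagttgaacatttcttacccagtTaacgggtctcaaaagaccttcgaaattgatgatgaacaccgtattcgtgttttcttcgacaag
RPS6B: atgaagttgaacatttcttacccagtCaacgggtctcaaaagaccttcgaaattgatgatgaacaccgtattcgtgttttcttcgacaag

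Within these 90 bases the copies differ at 12 positions in RPS22, 6 in RPS26, 5 in RPS9 and 1 in RPS6. Over the whole coding sequence identity ran from 84.3% in RPS27 to 99.2% in RPS6, and 9 of the 24 pairs were at 95% or more. Reads that match both copies could have been lost or split, depending on the counting, which is not given in the sources used here. A stretch of 100 identical bases occurred in 4 pairs. In RPS6 the longest identical run was 311 of 711 bases and 72.1% of the 50-base stretches of the copies were shared. In RPS4 these values were 158 of 786 bases and 46.8%, and in RPS24 152 of 408 bases and 38.2%. Counts of the copies of these 4 pairs are therefore uncertain, whereas 9 pairs, RPS22, RPS26 and RPS27 among them, shared no 50-base stretch. In the reference annotation RPS22B was the 1 member that overlapped another feature, the small nucleolar RNA gene SNR44 in its intron. Rows absent from that annotation were not checked.

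Total counts ranged from 5900571 to 18245935 per library and a member had 146 to 16832 counts in a library. Levels are CPM, counts scaled to a common library size with factors from the trimmed mean of M-values (TMM), given as mean ± SD over 3 libraries, and changes are log2 fold changes ± SE from edgeR's quasi-likelihood fit on all genes. A gene is called at an adjusted p under 0.05. The control libraries bear the column names control1, control12 and control13, and control13, one of the shallower libraries at 6585639 counts and with the lowest TMM factor (0.757), stood apart from the others. In CPM, which uses that factor, all 56 members were higher in control13 than in both other controls, at 1.15 to 3.09 times the mean of these (median 2.03). As a share of all counts, without TMM factors, the 56 genes together held 2.06% in control13, 1.40% in control1 and 1.38% in control12. The libraries control1 and control12 differed by a median of 5.6% of their mean. Across members, the median coefficient of variation was 6.12% in Ind_Z, 17.4% in Ind_B and 44.2% in control. The main results for the 56 genes against control are therefore given with and without control13. Whether growth state or a technical difference set this library apart was not tested.

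**Figure D1:**
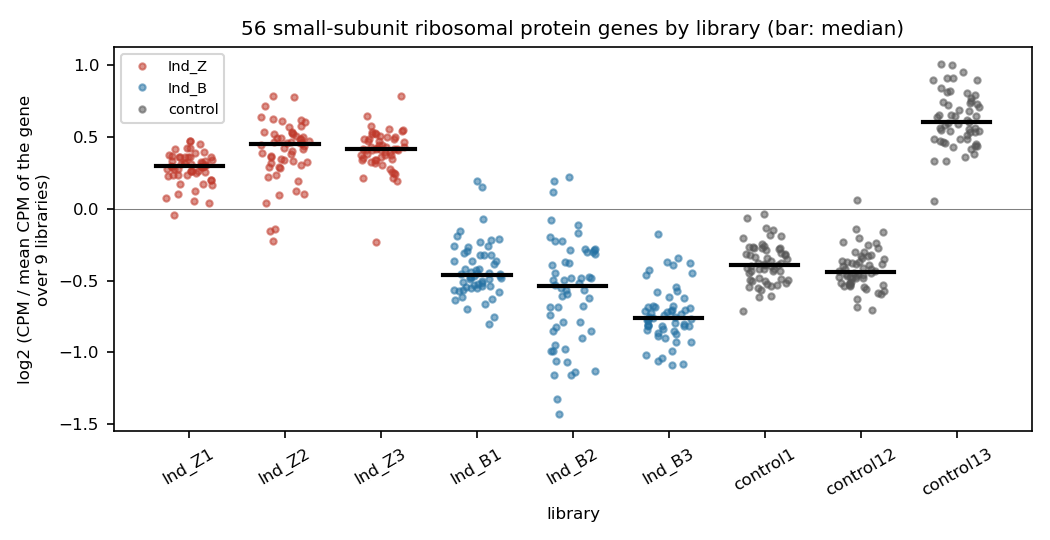
Level of each of the 56 genes (points) in each library, as log2 of its CPM over its mean CPM in the 9 libraries, with the median as a bar. The medians were 0.30, 0.45 and 0.41 in the Ind_Z libraries, −0.46, −0.54 and −0.76 in the Ind_B libraries, and −0.39, −0.44 and 0.60 in control1, control12 and control13.

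The genes took a larger part of the library in Ind_Z than in Ind_B. They held 2.05%, 2.27% and 2.16% of all counts in Ind_Z replicates 1, 2 and 3, against 1.35%, 1.24% and 1.23% in Ind_B replicates 1, 2 and 3. In control1, control12 and control13 they held 1.40%, 1.38% and 2.06%. The Ind_Z libraries lay above all Ind_B libraries, and control13 lay at the low end of Ind_Z. The counts of these genes relative to those of the large subunit (RPL and RPP genes, 80 rows) were 0.811, 0.812 and 0.818 in Ind_Z, 0.790, 0.925 and 0.786 in Ind_B, and 0.843, 0.816 and 0.852 in the controls. This ratio of the subunits, which does not depend on library scaling, spanned 0.786 to 0.852 in all libraries but Ind_B replicate 2.

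Per kilobase of coding length, the copies of a pair together reached levels near those of single-copy genes. Over the 9 libraries the median was 1106 CPM per kb for the 24 duplicated proteins and 1064 CPM per kb for the 8 single-copy ones. Levels over the 32 proteins had a coefficient of variation of 32.6%, against 53.0% for the 56 genes taken singly. The highest proteins were RPS31, made as a fusion with ubiquitin, at 2134 CPM per kb, and RPS1 at 2059 CPM per kb. The lowest was RPS29, a zinc-binding protein, at 501 CPM per kb, whose coding sequences are the shortest of all, at 171 bases.

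Among the highest single genes per kb were RPS31 (2134 CPM per kb), RPS3 (1280 CPM per kb), whose protein lines the entry of the mRNA channel, RPS26A (1156 CPM per kb) and RPS20 (1097 CPM per kb), of the subunit's head. The bottom 5 were RPS29A (136 CPM per kb), RPS14B (142 CPM per kb), RPS9A (153 CPM per kb), RPS24B (235 CPM per kb) and RPS6A (236 CPM per kb). Each of these last 5 is the minor copy of its pair. The levels of RPS24B and RPS6A are uncertain because of the long stretches they share with their partners. The spread between the libraries of a group was wide compared with the steps between genes near in level: RPS26A averaged 1389 ± 44.3 CPM per kb in Ind_Z, 750.4 ± 159 in Ind_B and 1330 ± 725 in control, and RPS20 averaged 1530 ± 114 in Ind_Z, 633 ± 78.9 in Ind_B and 1128 ± 619 in control (SD, n = 3 each).

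**Figure D2:**
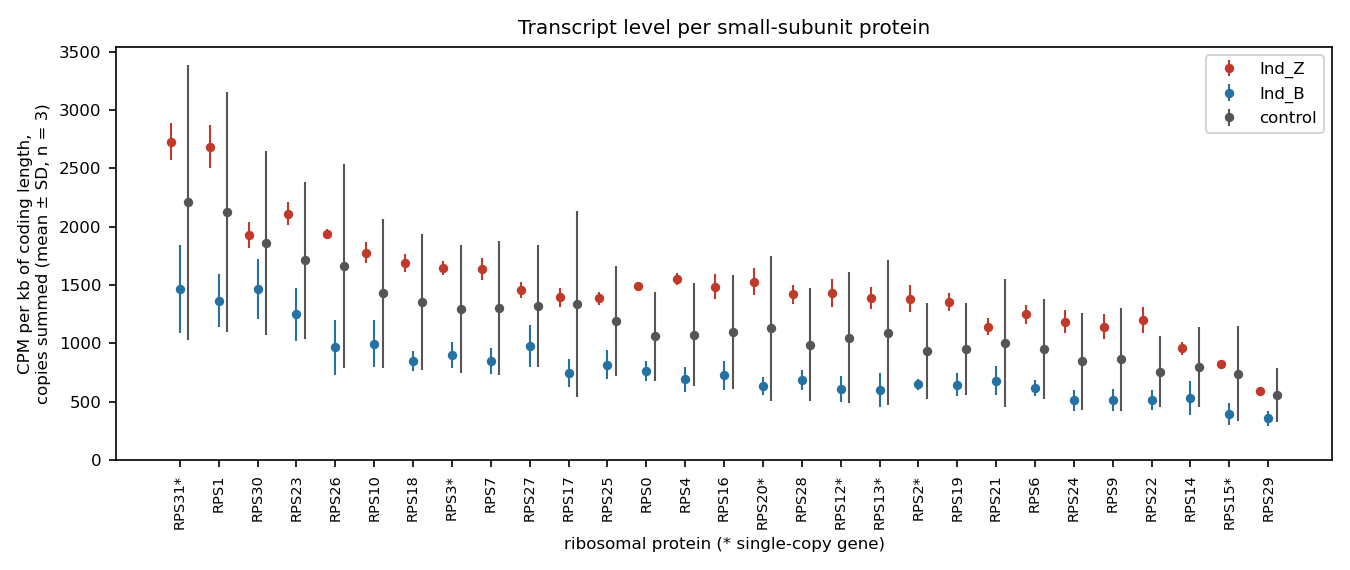
CPM per kb of coding length for 29 of the 32 proteins with the copies summed (points, mean; lines, SD, n = 3 libraries), ordered by the mean over 9 libraries, with an asterisk at single-copy genes. Ind_Z is above Ind_B for every protein drawn, from RPS31 (2730 against 1463) to RPS29 (589 against 358). The wide lines of the controls are SDs computed with control13 included.

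The comparison of Ind_Z with Ind_B set the antifoams directly against each other. The fold change was positive for 56 of 56 genes, with a median of 0.96, while the median over all 6137 genes tested was −0.03. For 51 of the 56 every Ind_Z library was above every Ind_B library, and for the other 5 the groups overlapped. Over all genes tested, 21.4% had Ind_Z wholly above Ind_B and 21.5% wholly below. In the fit on all 9 libraries 1 of the 56 was called, beside 0.358% of all genes tested called higher in Ind_Z and 0.0652% lower. An unadjusted p under 0.05 was found for 50 of the 56, and for 25.5% of all genes tested.

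The number of calls differed with the libraries and the tool used. The same comparison fitted on the 6 antifoam libraries called 51 of 56, all higher in Ind_Z (adjusted p from 0.000286 to 0.0249), beside 13.1% of all genes tested called higher and 7.4% lower. These 51 were the 51 whose groups did not overlap. The fit on 8 libraries without control13 called the same 51 genes (14.2% of all genes called higher, 9.31% lower), and DESeq2 on all 9 libraries called 43 of them (7.42% of all genes called higher, 3.13% lower). The median change was 0.97 in both of the smaller fits.

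RPS22A, a protein of the subunit's body, differed most. It had 276, 348 and 348 CPM in Ind_Z, against 116, 117 and 94.8 CPM in Ind_B, and 123, 124 and 269 CPM in control1, control12 and control13. Every Ind_Z library lay above all 6 others. Its change against Ind_B was 1.57 ± 0.28 (adjusted p = 0.0518), and 1.58 with an adjusted p of 0.000286 in the fit on 6 libraries.

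RPS9B, which acts in the accuracy of decoding, had 524, 663 and 588 CPM in Ind_Z, against 276, 181 and 229 CPM in Ind_B (change 1.37 ± 0.33). RPS24B had 123, 147 and 150 CPM in Ind_Z, against 64.2, 45.8 and 53.5 CPM in Ind_B (1.36 ± 0.31). Its counts are uncertain because of the stretches it shares with RPS24A. RPS26B, which contacts mRNA upstream of the start codon, had 173, 227 and 197 CPM in Ind_Z, against 106, 49.2 and 79.4 CPM in Ind_B (1.34 ± 0.32). In each of these genes the groups were apart, and Ind_B replicate 2 was the lowest library.

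The 8 single-copy genes, whose counts are not split with a paralog, had changes of 0.87 to 1.27 with a median of 1.14. RPS20 had 515, 597 and 568 CPM in Ind_Z, against 260, 233 and 203 CPM in Ind_B (1.27 ± 0.31). RPS12 had 560, 644 and 654 CPM in Ind_Z, against 304, 277 and 211 CPM in Ind_B (1.23 ± 0.31). The groups were well apart in both. Further changes were 1.21 ± 0.34 for RPS13, 1.09 ± 0.26 for RPS2, 1.06 ± 0.32 for RPS15, which acts in export of the pre-small subunit from the nucleus, 0.90 ± 0.33 for RPS31 and 0.87 ± 0.26 for RPS3. All 8 are among the 51 genes called in the fit on 6 libraries.

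The 5 members that overlapped between Ind_Z and Ind_B were RPS27A, RPS9A, RPS14B, RPS30A and RPS21A. RPS27A had 98.8, 86.1 and 114 CPM in Ind_Z, against 107, 112 and 74.1 CPM in Ind_B (0.03 ± 0.17). RPS9A had 88.4, 77.8 and 77.6 CPM in Ind_Z, against 81.9, 66.7 and 80.8 CPM in Ind_B (0.09 ± 0.21). RPS14B had 62.5, 53.9 and 68.0 CPM in Ind_Z, against 67.9, 47.7 and 46.9 CPM in Ind_B (0.18 ± 0.20). In each of these genes an Ind_Z library was the highest and an Ind_B library the lowest, with the others interleaved. The changes of RPS21A (0.29 ± 0.22) and RPS30A (0.28 ± 0.24) were small next to those of their partners RPS21B (0.96 ± 0.35) and RPS30B (0.54 ± 0.27).

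All 5 carry an intron in the coding sequence, as do 36 of the 56 members. The other 31 members with an intron and all 20 without one had no overlap between the groups. The median change was 0.95 with an intron and 1.02 without, so the classes differed in their lower end more than in their middle. RPS14B is known to be repressed by its own protein, which binds its unspliced RNA, and splicing of the RPS9 genes is likewise known to be under feedback. RPS9B, which also carries an intron, changed by 1.37 ± 0.33. Whether such feedback bears on the changes of these genes was not tested.

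**Figure D3:**
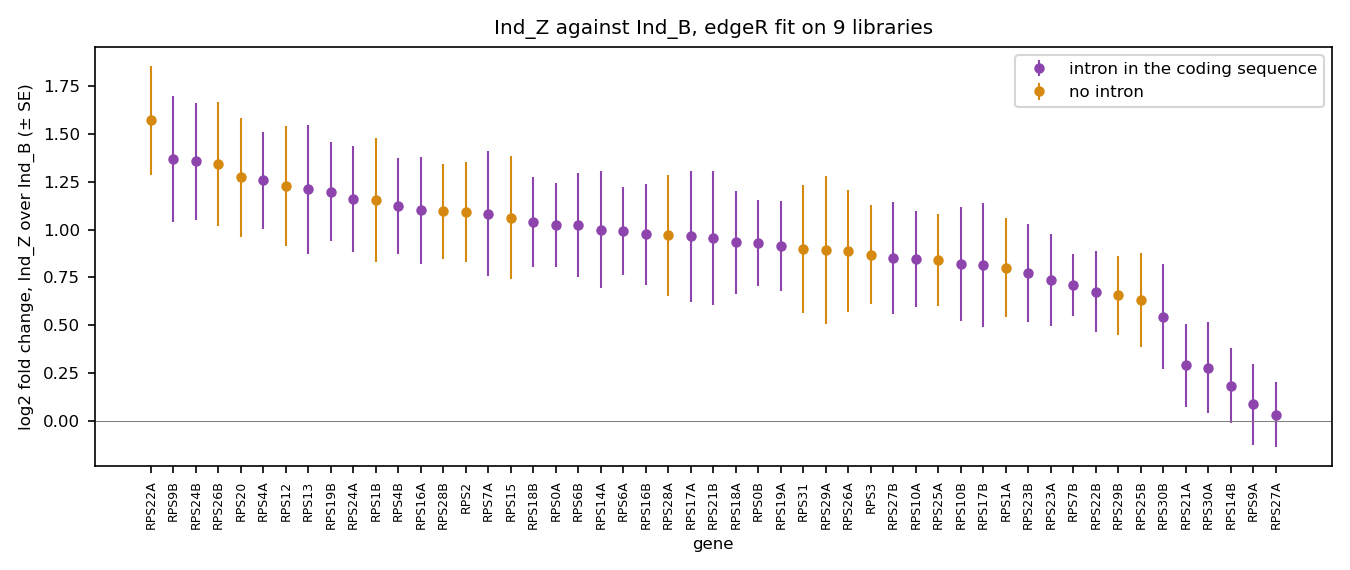
Log2 fold change of Ind_Z over Ind_B for 51 of the 56 genes (points) with its SE (lines) in the fit on 9 libraries, ordered by size and coloured by whether the coding sequence has an intron. All 51 points are above 0, from 1.57 for RPS22A to 0.03 for RPS27A, and the last 5 are genes with an intron.

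Ind_Z against control asked which transcripts that antifoam changes. With all 3 controls, 54 of 56 genes had a positive fold change with a median of 0.35 (median of all genes tested −0.03). None was called by edgeR's quasi-likelihood test, where 1.73% of all genes tested were called higher and 0.407% lower, and 7 members (12.5%) had an unadjusted p under 0.05, as had 19.3% of all genes tested. DESeq2 called 1 member, beside 4.7% of all genes called higher and 2.38% lower. Of the 56, 3 had Ind_Z wholly above control (13.5% of all genes tested) and 1 wholly below (12.6%). Without control13 the median was 0.79, 55 of 56 were positive, and 50 were called, all higher in Ind_Z, where 13.1% of all genes tested were called higher and 6.54% lower. These 50 are among the 51 called in the same fit against Ind_B, with RPS29B the 1 that was not called against control. In that setting 53 of 56 had Ind_Z wholly above both controls, beside 30.5% of all genes tested, and 1 had it wholly below, beside 30.8%.

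The place of control13 against Ind_Z differed with the scaling. As a share of all counts the 56 genes together held 2.06% in control13, within the 2.05% to 2.27% of the Ind_Z libraries. In CPM, which uses the TMM factors, 43 of the 56 members in control13 were above all 3 Ind_Z libraries and 3 were below all of them. RPS15, for example, had 343, 362 and 357 CPM in Ind_Z, against 210, 224 and 521 CPM in control1, control12 and control13. Control13 was the highest and the other controls the lowest of the 6 libraries. Its change was 0.16 ± 0.32, and 0.71 without control13 (adjusted p = 0.018).

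Among the highest changes against the 3 controls were those of RPS22A (0.92 ± 0.28, adjusted p = 0.12, and 1.39 without control13), RPS26B (0.74 ± 0.32), RPS4A (0.62 ± 0.25) and RPS28B (0.62 ± 0.25). The counts of RPS4A are uncertain because of the stretches it shares with RPS4B. RPS22A and RPS0A, of the subunit's body, were among the members wholly above control. The lowest were those of RPS9A (−0.50 ± 0.21), RPS14B (−0.01 ± 0.20), RPS30B (0.01 ± 0.27), RPS17B (0.06 ± 0.32) and RPS26A (0.06 ± 0.31). RPS9A, the member wholly below control, had 88.4, 77.8 and 77.6 CPM in Ind_Z, against 88.9, 95.03 and 163 CPM in control1, control12 and control13. Ind_Z replicate 1 nearly reached control1, and without control13 the change was −0.17 (adjusted p = 0.331).

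Ind_B against control asked the same of the other antifoam, with the same control libraries. With all 3 controls, 55 of 56 genes had a negative fold change with a median of −0.60 (median of all genes tested 0.01). None was called by edgeR's quasi-likelihood test, where 0.0326% of all genes tested were called higher and 0.114% lower. DESeq2 also called none, where 2.36% of all genes were called higher and 2.59% lower. The lowest adjusted p was 0.187, and 30 members (53.6%) had an unadjusted p under 0.05, as had 19.1% of all genes tested. Ind_B lay wholly below control in 19 of the 56, beside 9.21% of all genes tested, and wholly above in none, beside 12%. Without control13 the median was −0.20, none was called by edgeR (0.146% of all genes called higher, 0.583% lower) and 4 (7.14%) had an unadjusted p under 0.05, as had 13.4% of all genes tested. The same 19 members then lay wholly below, beside 12.4% of all genes tested, and none wholly above, beside 15.6%.

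Among the lowest changes were those of RPS15 (−0.91 ± 0.32, and −0.36 without control13), RPS17A (−0.89 ± 0.34, and −0.26), RPS13 (−0.86 ± 0.33, and −0.29) and RPS20 (−0.83 ± 0.31, and −0.29). RPS15 had 205, 128 and 175 CPM in Ind_B, against 210, 224 and 521 CPM in control1, control12 and control13. Ind_B replicate 1 lay just below control1. The highest were RPS27A (0.10 ± 0.17), RPS21A (−0.07 ± 0.22), RPS30A (−0.17 ± 0.24), RPS14B (−0.19 ± 0.20) and RPS23A (−0.36 ± 0.24), which include 4 of the 5 genes that overlapped between Ind_Z and Ind_B.

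**Figure D4:**
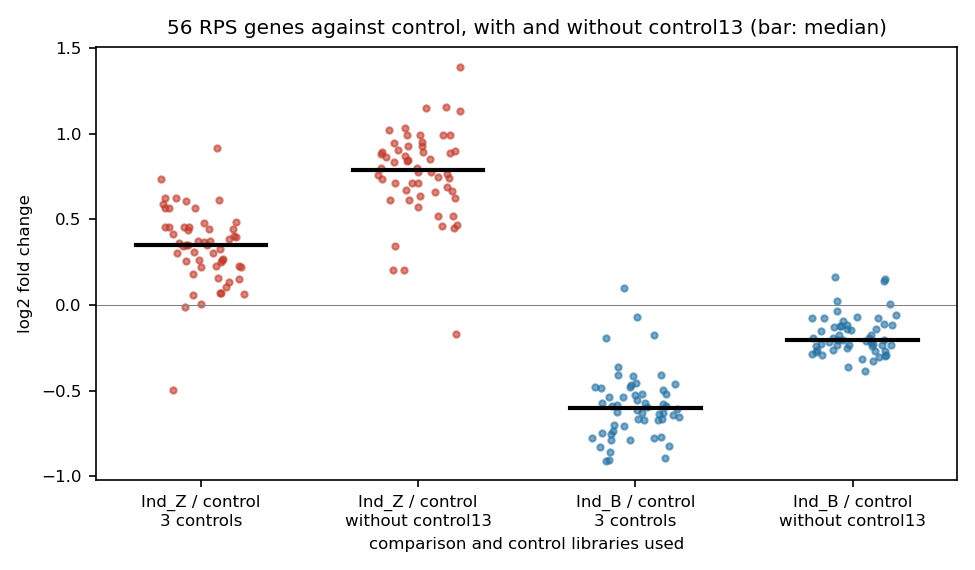
Log2 fold change of each of the 56 genes (points) over control with 3 control libraries and without control13, for Ind_Z and for Ind_B, with medians as bars. The medians were 0.35 and 0.79 for Ind_Z, and −0.60 and −0.20 for Ind_B.

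The share of a pair's counts in the A copy does not depend on library scaling. It was tested with limma on the log2 ratio of A to B over all 60 pairs of the table named in this way, of which 24 are RPS pairs. Over the 9 libraries the mean A share ran from 20.4% to 79.9%, with 12 pairs above 50% and 12 below. The highest A shares were those of RPS14 (79.9%), RPS26 (76.3%), RPS24 (72.9%), RPS7 (64.0%) and RPS25 (63.4%), and the lowest those of RPS9 (20.4%), RPS6 (25.3%), RPS29 (26.3%), RPS21 (29.9%) and RPS4 (32.1%). In 10 pairs the copies were near balance, between 40% and 60%. The shares of RPS24, RPS6 and RPS4 are uncertain because their copies have long stretches in common.

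Between Ind_Z and Ind_B the ratio changed in 9 of 24 RPS pairs, with the A copy gaining in 2 and losing in 7. Over all 60 pairs 41.7% were called, 20% with the A copy gaining and 21.7% with it losing, so the share among RPS pairs is near that of the whole set. RPS9A held 14.4%, 10.5% and 11.7% of the pair's counts in Ind_Z, against 22.9%, 26.9% and 26.0% in Ind_B, and 25.1%, 26.1% and 20.1% in control1, control12 and control13. The Ind_Z libraries were below all others. The log2 ratio changed by −1.29 ± 0.17 against Ind_B (adjusted p = 0.000299).

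RPS22A held 65.3%, 71.4% and 68.4% in Ind_Z, against 54.9%, 50.8% and 56.9% in Ind_B, and 53.5%, 55.1% and 61.9% in control1, control12 and control13. Here the Ind_Z libraries were above all others, with a change of 0.87 ± 0.16 against Ind_B (adjusted p = 0.00275). RPS14A held 83.1%, 87.0% and 83.2% in Ind_Z, against 76.0%, 70.7% and 78.6% in Ind_B (0.85 ± 0.19, adjusted p = 0.01), and 78.3%, 78.7% and 83.7% in control1, control12 and control13. RPS27A held 27.5%, 24.7% and 29.95% in Ind_Z, against 39.2%, 42.0% and 38.5% in Ind_B (−0.82 ± 0.23, adjusted p = 0.0191), and 34.5%, 33.8% and 20.8% in control1, control12 and control13. In both pairs control1 and control12 lay on the Ind_B side of all Ind_Z libraries. Control13 lay within the range of the Ind_Z libraries in RPS14 and below all of them in RPS27.

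RPS26A held 74.97%, 68.3% and 71.4% in Ind_Z, against 75.3%, 81.0% and 77.8% in Ind_B (−0.50 ± 0.15, adjusted p = 0.0255), and 78.9%, 78.3% and 81.1% in control1, control12 and control13. Ind_Z replicate 1 came close to Ind_B replicate 1, and control13 lay on the side away from Ind_Z. Further called pairs were RPS21 (−0.64 ± 0.22) and RPS19 (−0.28 ± 0.09), both at an adjusted p of 0.0379. All 9 were also called without control13, together with RPS1, and the share over all A/B pairs in that setting is not given here. Over the 13 alternatives run, RPS27 was called in 11, RPS26 in 9, RPS21 in 7 and RPS19 in 5, with the direction kept in all.

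Against control, Ind_Z changed the ratio in 3 RPS pairs, beside 18.3% of all 60 pairs called. They were RPS9 (−1.17 ± 0.17, adjusted p = 0.00211), RPS22 (0.72 ± 0.16, adjusted p = 0.0125) and RPS26 (−0.61 ± 0.15, adjusted p = 0.0227). All 3 were called without control13, together with RPS14, RPS27 and RPS29. The share of all 60 pairs called in that setting is not given here. For Ind_B against control limma called 0 RPS pairs and 0 of all 60 (0%), and the lowest adjusted p was 0.187. An unadjusted p under 0.05 was found for 3 RPS pairs, and the share over all 60 is not given here. No other tool was run on the ratios.

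The pairs whose copies are hardest to separate varied least. Between the lowest and the highest library, the A share spanned 2.97 to 6.09 percentage points in the 4 pairs with at least 30% of their 50-base stretches in common, against 4.01 to 21.2 points (median 12.3) in the 9 pairs with none. Across the 24 pairs, the span and the identity of the coding sequences had a Spearman correlation of −0.75 and a Pearson correlation of −0.75. These are descriptions over pairs that share libraries, and the part of shared reads in them was not tested. RPS6 is the extreme, with the A copy at 25.5%, 25.1% and 24.96% in Ind_Z, 24.9%, 26.6% and 25.1% in Ind_B, and 25.9%, 26.2% and 23.6% in the controls.

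**Figure D5:**
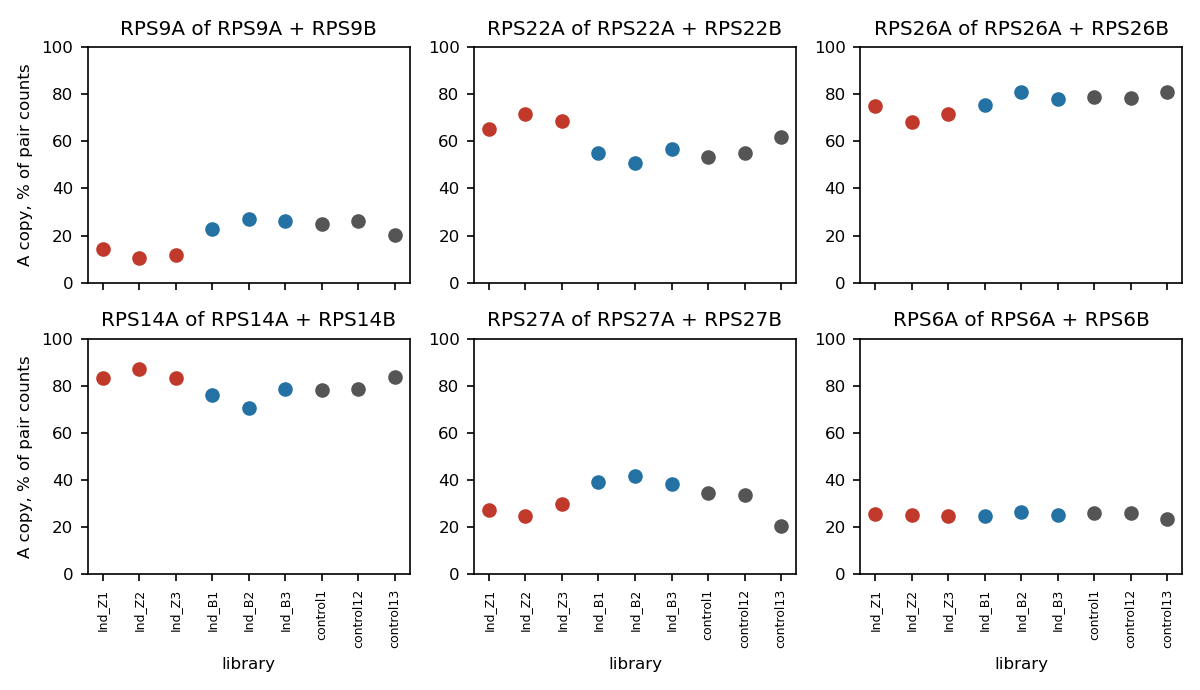
Share of the pair's counts in the A copy (percent) in each library, for the 5 pairs of lowest p between Ind_Z and Ind_B, and for RPS6, the pair with the most similar copies. RPS9A is at 10.5% to 14.4% in Ind_Z and at 20.1% to 26.9% elsewhere, while RPS6A stays between 23.6% and 26.6% in all 9 libraries.

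Genes that act on or around the small subunit were described from 3 lists. The list of ribosomal protein gene regulators (20 genes, all tested) had medians of −0.08 for Ind_Z against Ind_B, −0.12 for Ind_Z against control and 0.00051 for Ind_B against control, and edgeR called no member. At an unadjusted p under 0.05 the numbers were 1, 3 and 3 in these comparisons, beside 25.5%, 19.3% and 19.1% of all genes tested. DESeq2 called 1 member lower in each, where it called 3.13%, 2.38% and 2.59% of all genes lower. Its member of lowest p for Ind_Z against Ind_B was CRF1, a corepressor of ribosomal protein genes, at 48.8 ± 2.69 CPM in Ind_Z and 74.9 ± 7.91 CPM in Ind_B (−0.61 ± 0.16, adjusted p = 0.0767). CRF1 also had the lowest p for Ind_B against control, where controls were at 50.4 ± 11.5 CPM (0.56 ± 0.16, adjusted p = 0.139). Its change for Ind_B against control was 0.39 without control13 (adjusted p = 0.172). For Ind_Z against control the lowest p was that of KOG1, a subunit of TORC1, at 144 ± 4.31 CPM in Ind_Z and 188 ± 16.3 CPM in control (−0.39 ± 0.12, adjusted p = 0.115). Without control13, 2 regulators were called lower in Ind_Z in each comparison, where 9.31% of all genes were called lower against Ind_B and 6.54% against control. They were CRF1 (−0.60, adjusted p = 0.00347) and the activator FHL1 (−0.29, adjusted p = 0.0408) against Ind_B, and KOG1 (−0.44, adjusted p = 0.0185) and FHL1 (−0.34, adjusted p = 0.0384) against control. For Ind_B against control none was called by edgeR in that setting.

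Of 27 assembly factors of the small subunit, edgeR called 1 higher, for Ind_Z against control, and 0 in the other comparisons. Over all genes tested it called 1.73% higher in Ind_Z than in control. At an unadjusted p under 0.05 there were 3 for Ind_Z against Ind_B, 3 for Ind_Z against control and 2 for Ind_B against control. Over all genes tested, 25.5%, 19.3% and 19.1% had such a p. DESeq2 called 1 higher in each, where it called 7.42%, 4.7% and 2.36% of all genes higher. YAR1, the chaperone that escorts newly made Rps3, rose to 111 ± 4.89 CPM in Ind_Z, against 43.4 ± 12.3 CPM in control (1.35 ± 0.18, adjusted p = 0.00683). It was at 76.5 ± 6.05 CPM in Ind_B, which did not pass the test against control (0.81 ± 0.17, adjusted p = 0.0817). Without control13 the change of YAR1 was 1.27 for Ind_Z against control (adjusted p = 0.00215) and 0.73 for Ind_B against control (adjusted p = 0.105). In that setting YAR1 was called higher (0.54, adjusted p = 0.0304) and DIM1, an rRNA dimethylase, lower (−0.31, adjusted p = 0.0254) in Ind_Z than in Ind_B. Of all genes, 14.2% were called higher and 9.31% lower there. The medians of the list were −0.03 for Ind_Z against Ind_B, 0.06 for Ind_Z against control and 0.06 for Ind_B against control.

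The 18 proteins that bind the small subunit or act in initiation had medians of 0.25 for Ind_Z against Ind_B, 0.27 for Ind_Z against control and −0.06 for Ind_B against control, with 0 called by edgeR with all libraries. The numbers at an unadjusted p under 0.05 were 8, 4 and 2 in these comparisons, beside 25.5%, 19.3% and 19.1% of all genes tested. DESeq2 called 5, 1 and 0, all higher, where it called 7.42%, 4.7% and 2.36% of all genes higher. Without control13, 6 were called higher in Ind_Z than in Ind_B (14.2% of all genes) and 5 higher than in control (13.1% of all genes). STM1, which binds idle ribosomes, was at 466 ± 42.3 CPM in Ind_Z and 192 ± 36.9 CPM in Ind_B (1.27 ± 0.31, adjusted p = 0.072), and at 334 ± 173 CPM in control. It had the list's lowest p for Ind_B against control (−0.79 ± 0.30, adjusted p = 0.216, and −0.29 without control13, adjusted p = 0.481). For Ind_Z against control the lowest p was that of SUI3, encoding a subunit of the factor that brings the initiator tRNA, at 178 ± 6.03 CPM in Ind_Z and 132 ± 7.3 CPM in control (0.43 ± 0.11, adjusted p = 0.0722, and 0.44 without control13, adjusted p = 0.0157).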

How the data were processed

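The authors deposited raw counts of reads, 1 row for each annotated gene. TopHat2 2.0.9 and HTSeq 0.6.0 are listed, without their roles, per the submitters' processing notes. The build, the strand setting and the handling of reads that map to several places are not stated there. Per the labels' protocols, ribosomal RNA was removed enzymatically. All 9 columns were used. Since control12 and control13 match no sample title, these columns entered the control group unnumbered. RefSeq R64 gave names, coding lengths, introns and pair sequences, for 5783 rows through the locus tag and 65 through the symbol, and 509 rows found no match.

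The deposited counts were tested with edgeR 4.0.16 (R 4.3.3): filterByExpr (6137 genes), TMM, 1 mean per group, all 9 libraries (6 residual degrees of freedom), quasi-likelihood F-test, Benjamini-Hochberg adjustment over all genes tested. Paralog ratios were log2((A + 0.5)/(B + 0.5)), for pairs with a mean of at least 10 counts in both copies, tested with limma 3.58.1 over 60 pairs. DESeq2 1.42.0, other scalings and filters, and leaving out each library were alternatives. The coding sequences of a pair were aligned with Biopython 1.88.

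Genes named are the called members (up to 10 by p), the 5 highest and 5 lowest changes and levels, single-copy genes, pairs that were called or had the 5 highest or lowest A shares, the most similar pairs, and from each list the called members (up to 4) or that of lowest p. RPS0A, RPS21B, RPS29B, FHL1, DIM1 and the pair RPS1 were named after their values were seen. Some members that this rule names are counted in the totals but not reported here by name or drawn in the plots that name each gene. The members and lists were chosen with earlier results of these data known. On simulated data for Ind_Z against control over 6126 genes, 23.7% of 1.5-fold, 75% of 2-fold and 100% of 4-fold changes were recovered. There were 10 calls among unchanged genes. These rates do not give the share of such changes that would be called among the 56 genes. In the deposited data the median SE for Ind_Z against control was 0.26 over the 56 genes and 0.17 over all genes tested. For Ind_Z against Ind_B, a median change of 0.96 gave 1 call among the 56.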

Additional observations from a re-analysis of the deposited data

How the results depend on the processing

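The medians of the 56 genes kept their direction under every scaling, filter and sample choice that gave one, and the counts of calls did not. For Ind_Z against Ind_B, where 1 gene was called, the count was 0 with RLE factors, 0 with TMM factors computed leaving out ribosomal protein genes, 0 when a mean count of 50 was required, 2 with upper-quartile factors, 43 with DESeq2 and 51 on the 6 libraries of the comparison. For Ind_Z against control, where 0 were called, DESeq2 called 1. Leaving out each library in turn, counts ran from 0 to 51 for Ind_Z against Ind_B, 0 to 50 for Ind_Z against control and 0 to 0 for Ind_B against control, with both high values without control13; without control1 or control12 the first was 4 or 3, and without any 1 antifoam library it was 0. For Ind_Z against Ind_B the median ran from 0.92 to 1.05 and the RPS pairs with a changed ratio from 3 to 10. For Ind_Z against control these ran from 0.17 to 0.79 and from 1 to 6, and for Ind_B against control from −0.78 to −0.20 and from 0 to 0. The 3 pairs fell to 1, RPS9, without control1, control12, Ind_Z replicate 2 or Ind_Z replicate 3. The 9 pairs fell to 5, 5, 3 and 4 without Ind_B replicate 2, Ind_Z replicate 1, Ind_Z replicate 2 and Ind_Z replicate 3. They fell to 6 without control1, control12, Ind_B replicate 1 or Ind_B replicate 3, and rose to 10 without control13. The cause of these shifts was not tested beyond the libraries left out.

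RPS9 was called in both Ind_Z comparisons under each alternative run, as were RPS22 and RPS14 against Ind_B. Whether the replicate numbers pair the antifoam libraries was not settled. Deviations of libraries with the same number correlated at −0.02, −0.24 and −0.44. No correlations between libraries of different numbers stand beside these, so they cannot decide it. With the number as a replicate block on these 6 libraries, 49 genes (median 0.98) and 6 pairs were called for Ind_Z against Ind_B. The shares of all genes and of all A/B pairs called in that fit are not given here. These counts can therefore not be read as particular to the RPS genes. The controls were not blocked, since 2 of their columns carry no number.

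Some single genes changed direction when a library was left out, most with a change near 0 over all libraries, and RPS29A for Ind_B against control with −0.66. Their ranges against control, for Ind_B, were −0.39 to 0.0073 for RPS14B, −0.0097 to 0.25 for RPS27A, −0.95 to 0.022 for RPS29A, −0.26 to 0.14 for RPS21A and −0.35 to 0.17 for RPS30A. For Ind_Z they were −0.071 to 0.71 for RPS15, −0.15 to 0.61 for RPS26A, −0.11 to 0.21 for RPS14B, −0.076 to 0.85 for RPS21B, −0.059 to 0.66 for RPS27B, −0.061 to 0.93 for RPS29A, −0.081 to 0.35 for RPS29B, −0.18 to 0.71 for RPS17A, −0.19 to 0.62 for RPS17B, −0.074 to 0.46 for RPS30A and −0.18 to 0.47 for RPS30B (−0.0026 with DESeq2). Between the antifoams they were −0.12 to 0.14 for RPS27A (−0.045 with upper-quartile factors) and −8.07e-05 to 0.14 for RPS9A.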
